A study of Mus musculus with 2 samples.

Results

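Folr2 Cd163 C1q macrophages were taken here as the cell barcodes of a mouse malignant pleural effusion that held RNA of the complement C1q chains together with RNA of Folr2, Cbr2 or Cd163. A member had at least 10 UMIs (unique molecular identifiers, each counted as 1 RNA molecule) of C1qa, C1qb and C1qc summed and at least 2 UMIs of Folr2, Cbr2 and Cd163 summed. It also had under 5 UMIs of the resident cavity macrophage genes Prg4, Alox15, Serpinb2, Cd5l and Fabp4, under 2% of its UMIs in the neutrophil genes S100a8, S100a9 and Retnlg, and no UMI of the lymphocyte genes Cd3d, Cd3e, Cd3g and Cd79a. The rule gave 483 members among 3963 barcodes kept (at least 300 genes detected and at most 10% mitochondrial UMIs), 230 of 1116 in library 1 and 253 of 2847 in library 2. Members were thus chosen by measured UMI counts of these genes in the same barcodes, so the levels of these genes are described below and were not tested.

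Folr2 encodes folate receptor beta, a marker of tissue macrophages that take up folate and sit close to vessels in many organs. C1qa, C1qb and C1qc encode the chains of C1q, which starts the classical complement pathway and also coats dying cells for uptake by phagocytes. Cd163 is the scavenger receptor for haptoglobin and haemoglobin complexes, and Cbr2 encodes a carbonyl reductase; both are found with Folr2 in macrophages of the kind that also carry the mannose receptor and the hyaluronan receptor LYVE1.

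Both libraries belong to 1 group: fluid of the pleural cavity from mice that had been given 150000 LLC cells, the mouse Lewis lung carcinoma line, in 100 µl of buffer into that cavity. The fluid was collected after 10 days, live CD45+ CD11b+ cells were sorted, and their RNA was counted with droplets (10x Genomics Single Cell 3' chemistry, version 2). There was no untreated or tumour-free group, and the labels name no strain, sex or age and do not say whether each library was 1 mouse or a pool. The comparisons below are therefore between sets of barcodes within the same fluid, each set summed per library, so n is 2 libraries.

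Total UMIs were 11543829 in library 1 and 20322996 in library 2. The libraries differed in makeup: neutrophil-gene-rich barcodes were 86 of those kept in library 1 and 1473 in library 2. Library 2 carried 2 antibody tags, called BC2 and BC3 in the files, and 251 of its 253 members had more BC2 than BC3. RNA of Y-linked genes without Xist was found in 180 of the 230 members of library 1 and in 8 of those of library 2, where 206 had Xist alone and 34 had both. The 34 had a median of 33213 UMIs against 18547 in the other members of library 2. Among the C1q-positive barcodes of library 2 with 0 or 1 UMI of Folr2, Cbr2 and Cd163, 8 of 278 had both. The libraries shared 4 barcode sequences, of which 0 were members. Sex, tags and library thus cannot be told apart, and values are given for each library.

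Members had more RNA per barcode than the other C1q-positive barcodes. Median UMIs were 12749 in library 1 and 21098 in library 2 for members, against 9995 and 11443 for barcodes that met every condition but held 0 or 1 UMI of Folr2, Cbr2 and Cd163 (114 and 278 barcodes, called the C1q-positive set below). A barcode with more UMIs reaches a threshold of 2 more easily, so depth moves with membership.

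The genes that chose the members were spread over different chromosomes. In mm10 (GRCm38, GENCODE M21 annotation), Folr2 (ENSMUSG00000032725) lies on the minus strand at chr7:101839988-101857194, Cbr2 (ENSMUSG00000025150) on the minus strand at chr11:120729489-120732114 and Cd163 (ENSMUSG00000008845) on the plus strand at chr6:124304656-124330527. C1qa (ENSMUSG00000036887) lies on the minus strand at chr4:136895917-136898803. Among the genes that come up below, Ccl8 is at chr11:82115185-82116799 and Pf4 at chr5:90772435-90773383, both on the plus strand, while Lyve1 (chr7:110850607-110863239) and Timp2 (chr11:118301069-118355740) are on the minus strand. All are protein-coding. The Folr2 interval also holds an antisense gene and a pseudogene in the annotation; no source used here states how strand was treated in counting, so reads of those could be counted with Folr2.

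The sequences just before the start sites of 4 of these genes are shown because the genes were high together in members: Folr2 and Cd163 by the rule, and Ccl8 and Pf4 by the test below. Each is the 250 bases before a RefSeq start (GRCm38.p6), read 5′ to 3′ on the gene's strand, with capitals marking GAGGAA, a core that the macrophage factor PU.1 can bind, or TGCTGA, the half-site of MAF factors, on either strand. For Folr2 the start of the shorter transcripts was used; that window lies inside the gene as annotated by GENCODE and overlaps 0 bases of its exons. The windows are Folr2 at chr7:101845332-101845581, Cd163 at chr6:124304401-124304650, Ccl8 at chr11:82114935-82115184 and Pf4 at chr5:90772185-90772434.
Folr2: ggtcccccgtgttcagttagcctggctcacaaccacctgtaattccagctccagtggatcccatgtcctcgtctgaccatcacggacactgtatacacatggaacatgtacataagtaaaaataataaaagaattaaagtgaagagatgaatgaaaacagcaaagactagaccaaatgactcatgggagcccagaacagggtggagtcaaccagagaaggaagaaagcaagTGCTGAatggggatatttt
Cd163: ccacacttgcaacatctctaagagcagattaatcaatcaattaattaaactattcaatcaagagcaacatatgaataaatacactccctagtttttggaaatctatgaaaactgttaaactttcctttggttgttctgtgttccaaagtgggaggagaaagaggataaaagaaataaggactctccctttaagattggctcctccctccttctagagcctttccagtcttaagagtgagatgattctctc
Ccl8: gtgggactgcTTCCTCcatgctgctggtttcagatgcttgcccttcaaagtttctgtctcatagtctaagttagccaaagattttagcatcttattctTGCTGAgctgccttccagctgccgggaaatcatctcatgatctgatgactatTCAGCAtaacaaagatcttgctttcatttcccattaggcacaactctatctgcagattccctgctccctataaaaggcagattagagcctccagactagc
Pf4: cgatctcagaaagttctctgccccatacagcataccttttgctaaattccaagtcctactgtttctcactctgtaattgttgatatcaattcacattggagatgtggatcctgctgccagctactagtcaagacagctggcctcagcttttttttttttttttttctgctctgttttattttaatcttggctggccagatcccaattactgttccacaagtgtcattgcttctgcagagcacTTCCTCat

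Of these windows, Folr2 held 1 MAF half-site, Ccl8 held 2 and 1 PU.1 core, Pf4 held 1 PU.1 core, and Cd163 held neither string. Among 27025 RefSeq promoter windows of the same length, 23.1% held the PU.1 core and 15.8% the MAF half-site. Over the 11 genes searched (Folr2, Cbr2, Cd163, C1qb, C1qc, Ltc4s, Tmem37, Ccl8, Timp2, Enpp1 and Pf4, 1 start each), 6 held the PU.1 core and 4 the MAF half-site. The Tmem37 window, which held both strings, overlapped GENCODE exons over all 250 bases, and the Timp2 window over 203. The PU.1 core counted for Cbr2 was not in the 157 bases of its window that were at hand. A match describes letters in the window and was not set against binding data.

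Levels are given as CPM, the UMIs of a gene scaled to all UMIs of the same set and library, which describe how the members differ in the genes that chose them. Folr2 stood at 346 and 134 CPM in members of libraries 1 and 2 and at 17.2 and 7.15 in the C1q-positive set. Cbr2 stood at 243 and 73.0 against 10.3 and 3.03, and Cd163 at 377 and 153 against 12.9 and 6.60. All 3 genes were higher in members of library 1 than in members of library 2. C1qa, required in both sets, was at 1896 and 1133 CPM in members and 1322 and 1099 in the C1q-positive set, so library 2 had nearly the same C1qa level in both.

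Median UMIs of Folr2, Cbr2 and Cd163 summed were 10 in members of library 1 and 6 in members of library 2. Around the threshold, 47 and 61 C1q-positive barcodes held exactly 1 such UMI and stayed outside, while 17 and 42 held exactly 2 and came in. The distribution had a long tail: 117 and 75 members held 10 or more. For the C1q condition, 5 and 6 barcodes with 5 to 9 C1q UMIs met all else and were left out, and 7 and 5 members had 10 to 14. The plot of UMIs of the selecting genes shows no gap at the threshold in either library.

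**Figure D1:**
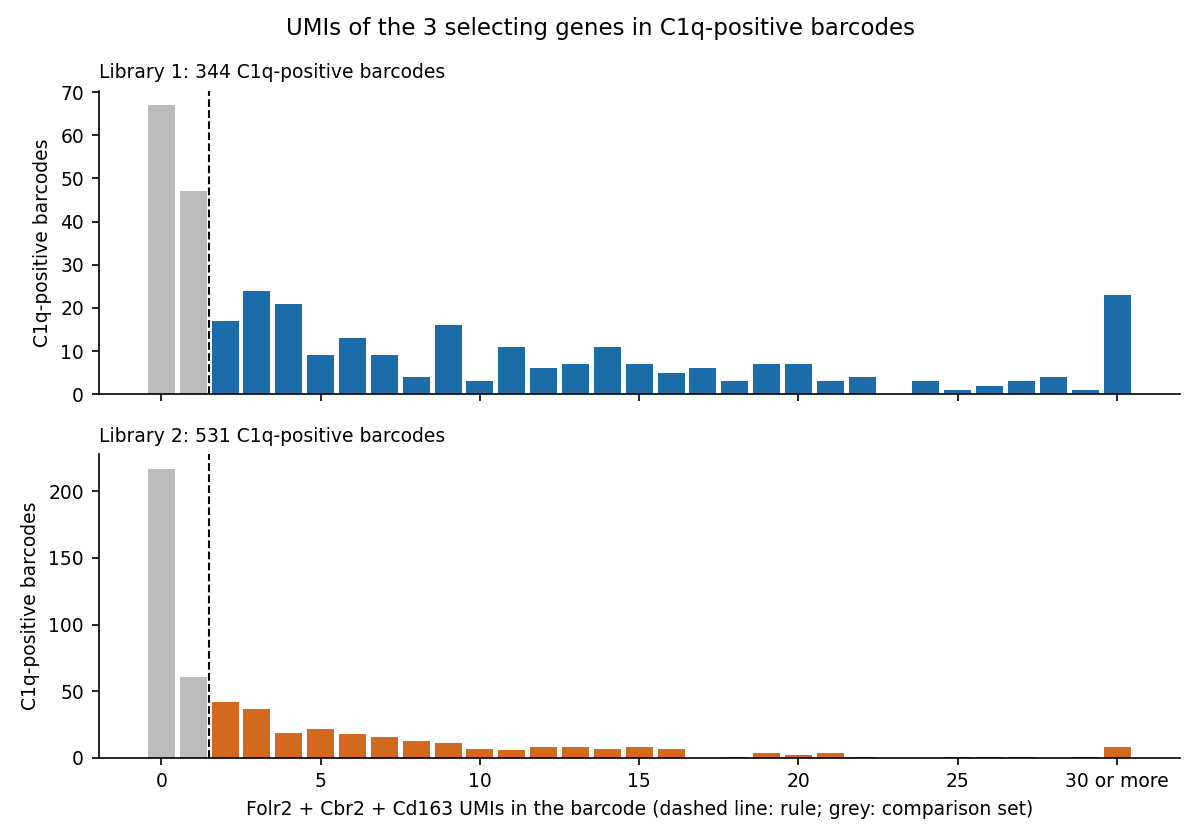
Number of C1q-positive barcodes (y axis) by summed Folr2, Cbr2 and Cd163 UMIs (x axis; the last bar is 30 or more) in library 1 (top, 344 barcodes) and library 2 (bottom, 531 barcodes). Grey bars left of the dashed line are the C1q-positive set with 0 or 1 UMI (114 and 278), coloured bars are members (230 and 253), and counts run on across the line without a gap.

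Members made up 20.6% of kept barcodes in library 1 (95% Clopper-Pearson interval 18.3 to 23.1) and 8.89% in library 2 (7.87 to 9.99), a mean of 14.7% ± 8.29 (SD, n = 2). Among barcodes on the BC2 side of library 2 the share was 21.9% (251 of 1146), and on the BC3 side 0.118% (2 of 1701). Of the 1473 neutrophil-gene-rich barcodes of library 2, 37 were on the BC2 side. Of C1q-positive barcodes, members were 66.9% in library 1 (61.6 to 71.8) and 47.6% in library 2 (43.3 to 52.0). With the rule applied after each barcode was thinned to 4000 UMIs, these became 52.3% (149 of 285) and 20.9% (80 of 382). Intervals cover counting error only.

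At the common depth of 4000 UMIs the 3 selecting genes were seldom all seen in 1 barcode. In library 1, 36 of 227 members (15.9%) showed all 3, 81 showed 2, 91 showed 1 and 19 showed none; in library 2, 11 of 252 (4.37%) showed all 3, 49 showed 2, 121 showed 1 and 71 none. Cbr2 was seen in 49.6% of members with Folr2 and 35.4% of those without it in library 1, and in 27.8% and 21.3% in library 2. Cd163 was seen in 55.7% with Folr2 and 60.4% without it in library 1, and in 33.0% and 40.6% in library 2. A member without Folr2 had to hold Cbr2 or Cd163 on the deposited counts, so the rule itself ties these shares to each other and they are a description.

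Free RNA can put UMIs in any droplet, so the share of neutrophil-gene-rich barcodes with Folr2 gives the background. Members were chosen for this RNA, so their higher share is set by the rule and is given as a description. Thinned to 1000 UMIs, Folr2 was seen in 24.8% of members and 2.33% of neutrophil-gene-rich barcodes in library 1, and in 14.6% and 0.524% in library 2. Without thinning the shares were 82.6% and 3.49% in library 1 and 79.1% and 0.95% in library 2, at median depths of 12749 and 2216.5 UMIs and of 21098 and 1334 UMIs.

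Ltc4s and Tmem37 were named as markers with the label but were not in the rule. Ltc4s encodes leukotriene C4 synthase; it stood at 351 and 89.8 CPM in members and 102 and 21.7 in the C1q-positive set, and at 578 and 330.2 in barcodes with resident cavity macrophage genes, so its level was not highest in members. Tmem37, a transmembrane protein gene, stood at 287 and 86.1 in members, 104 and 59.7 in the C1q-positive set and 47.5 and 39.4 in the resident-gene set. At 4000 UMIs, Ltc4s was seen in 45.8% and 20.2% of members and Tmem37 in 58.1% and 27.0%. Both were proposed as markers from these data, so they are no check of the label and are given without a test.

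Markers of several other cell types were at 0 in members, while neutrophil and monocyte markers were not. The platelet markers Itga2b, Gp9, Gp1bb and Gp5, the epithelial or tumour markers Krt8, Krt18 and Epcam and the mast cell or basophil markers Cpa3, Mcpt8 and Ms4a2 had 0 UMIs in members of both libraries. Erythroid markers were at 77.0 and 2.40 CPM in members and 74.6 and 11 in the C1q-positive set, B cell markers at 7.15 and 5.15 and endothelial markers at 4.22 and 6.01 in members. Markers of NK cells, eosinophils and mesothelial or stromal cells had at most 5 UMIs in members of either library. The 6 resident macrophage markers together stood at 14.9 and 7.04 CPM, with Gata6 at 0. Neutrophil markers stood at 1391 and 1083 CPM, against 1306 and 876 in the C1q-positive set. The 4 monocyte markers Ly6c2, Ccr2, Vcan and Plac8 summed to 1615 and 5273 CPM in members, below 2437 and 6796 in the C1q-positive set and 4269 and 7828 in barcodes with Ly6c2 and little C1q. Dendritic markers were at 13.3 and 48.6 CPM in members, against 45.5 and 38.0 in the C1q-positive set. In library 2, 40 of the 293 barcodes that met every other condition were left out for lymphocyte RNA, at a median of 31553 UMIs, against 22 of 300 in the C1q-positive set.

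The closest comparison is with the C1q-positive set, since both were held to the same limits on C1q, resident, neutrophil and lymphocyte RNA. The members had more of the hyaluronan receptor gene Lyve1, of the chemokine genes Ccl8, Pf4 and Ccl7, of the metalloproteinase inhibitor gene Timp2 and of the mannose receptor gene Mrc1. They had less of the sterol synthesis genes Fdps, Sqle, Idi1 and Msmo1 and of the antigen-loading gene H2-DMb1. In edgeR's quasi-likelihood test with library as a block, 38 of 9020 genes (0.421%) passed an adjusted p of 0.05: 25 were higher in members (0.277%) and 13 lower (0.144%), each in the same direction in both libraries. The 18 genes of the rule, Ltc4s and Tmem37 were left out of the test.

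The number of calls changed with how the sets were drawn and with the fit: it was 2 (Lpl and Ccl8) with the rule applied after thinning to 4000 UMIs, 154 among barcodes of 5000 to 15000 UMIs, of which 33 were among the 38, 16 with DESeq2 (8 higher and 8 lower, 15 of them among the 38), and 0 without the library block. Under the thinned rule 37 of the 38 kept their direction, Stmn1 being the exception. Enpp1, Lyve1 and the other calls lost there are given below as called with the rule on the deposited UMIs.

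**Figure D2:**
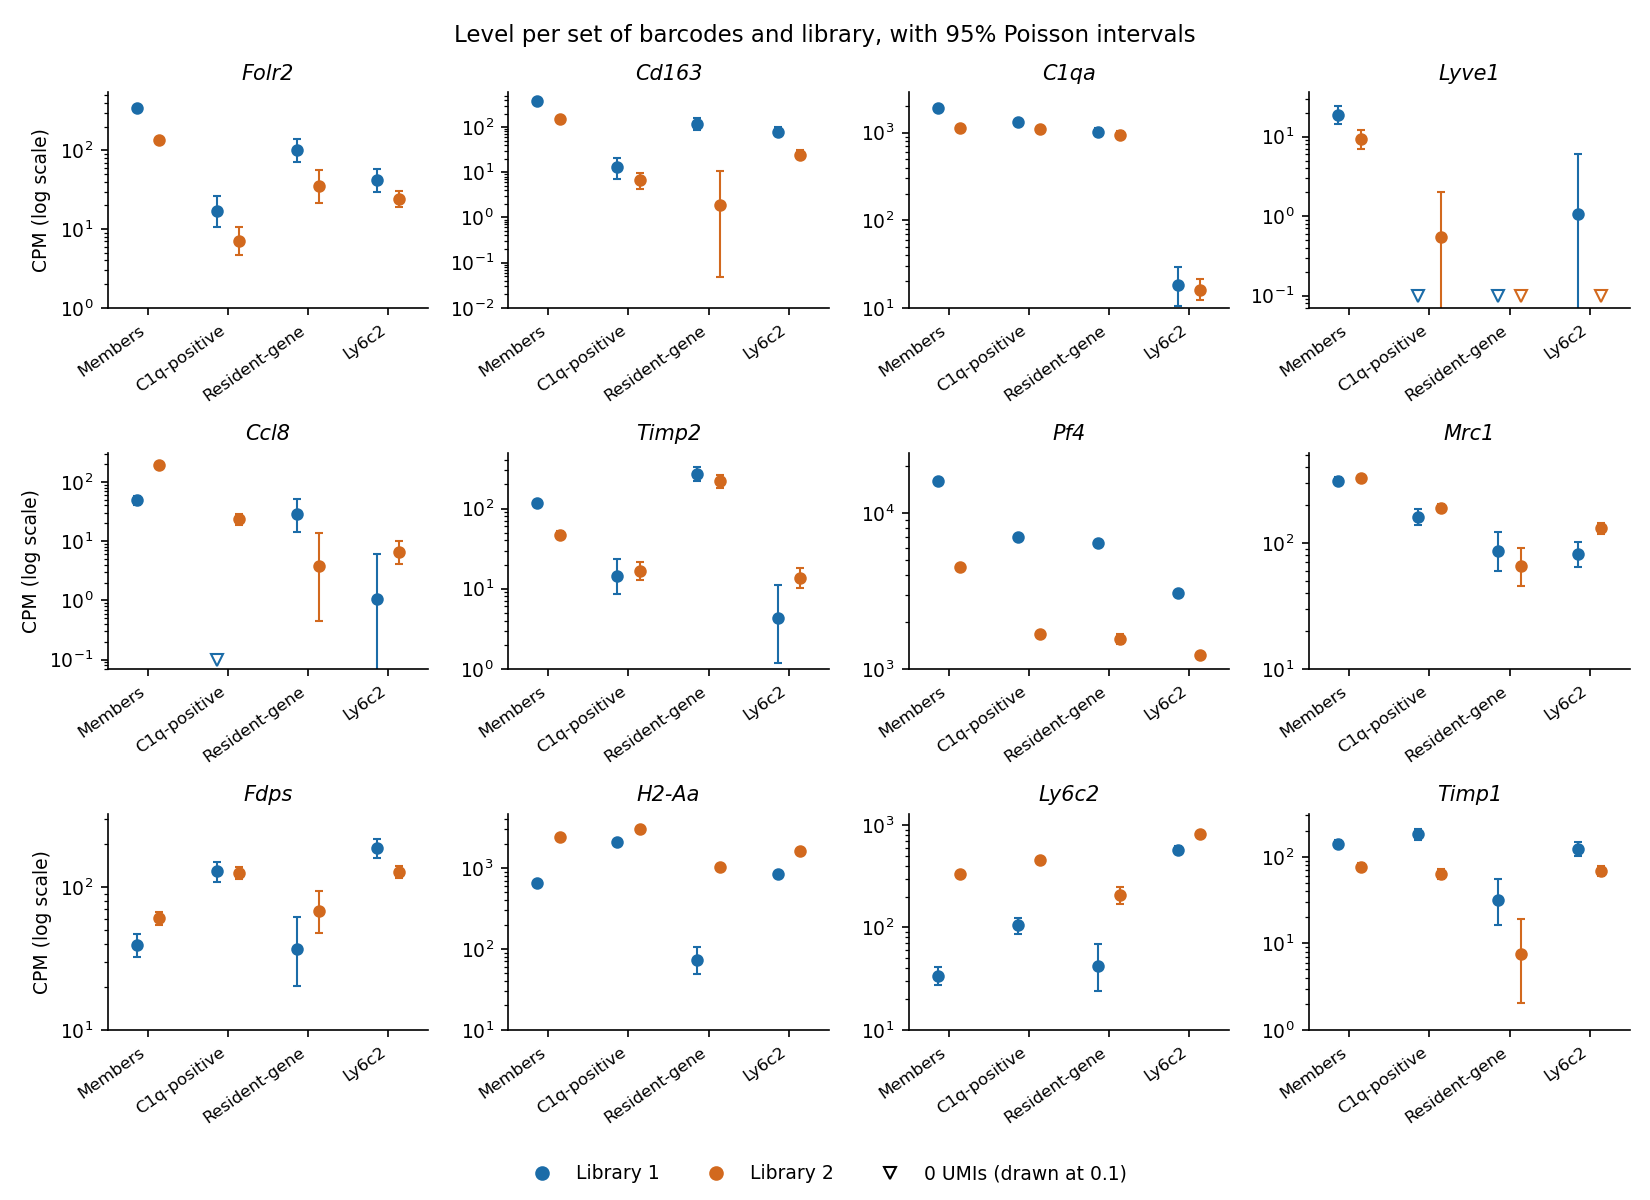
CPM (log y axis, a different range in each panel) of 12 genes in members, the C1q-positive set, the resident-gene set and the Ly6c2 set, for library 1 (blue) and library 2 (orange), with 95% Poisson intervals for counting error. Open triangles mark 0 UMIs, and bars that reach the axis go on below it; Lyve1 is near 0 outside members, Timp2 is highest in the resident-gene set, and Fdps is lower in members than in the C1q-positive and Ly6c2 sets in both libraries.

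Lyve1 had 58 and 54 UMIs in members and 0 and 2 in the C1q-positive set, or 18.8 and 9.28 CPM against 0 and 0.550. The log2 fold change was 4.63 ± 0.69 (SE; edgeR adjusted p = 0.00912), and the ratio of summed counts was 30.2 with an exact counting interval of 8.17 to 252. The size and the call depend on the rule: the log2 fold change was 1.34 with the rule applied after thinning to 4000 UMIs (edgeR adjusted p = 0.825) and 7.74 with members of 4 or more selecting UMIs against 0, the lowest and highest of 11 alternatives that gave a value. The RNA came from few barcodes, 18 of 230 and 14 of 253, and the 5 with most held 36 of 58 and 42 of 54 UMIs.

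Ccl8, a chemokine that draws monocytes and other leukocytes, stood at 48.4 and 193 CPM in members and 0 and 23.4 in the C1q-positive set. Members of both libraries lay above both comparison values. Its log2 fold change was 3.17 ± 0.39 (edgeR adjusted p = 0.00187). It was 5.59 among barcodes of 5000 to 15000 UMIs, and DESeq2 did not call it (adjusted p = 0.999). Ccl8 too was concentrated: 16 and 49 members held a UMI, and the top 5 held 114 of 149 and 737 of 1121 UMIs.

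Pf4, the chemokine known as platelet factor 4, was abundant in members at 16104 and 4493 CPM, against 7069.5 and 1662 in the C1q-positive set (log2 fold change 1.29 ± 0.15, edgeR adjusted p = 0.0017). The libraries differed more than the sets did: members of library 2 lay below the C1q-positive set of library 1, and the difference appears within each library. Platelet markers were at 0 in members, as given above. Ppbp, the other platelet chemokine measured, was at 2702 and 323 against 1277 and 132 CPM, and did not pass at 1.16 ± 0.28 on the log2 scale (edgeR adjusted p = 0.103).

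Timp2, which encodes an inhibitor of matrix metalloproteinases, stood at 117 and 47.1 CPM in members and 14.6 and 16.8 in the C1q-positive set, with no overlap. The log2 fold change was 2.11 ± 0.33 (edgeR adjusted p = 0.00983). Its relative Timp1, named in the study's title, was not called: 142 and 76.8 against 182 and 62.7 CPM, -0.04 ± 0.16 on the log2 scale (edgeR adjusted p = 0.989), with the libraries on opposite sides. Timp2 was also seen outside C1q barcodes: after thinning to 1000 UMIs it was seen in 7.83% and 1.98% of members and in 16.3% and 4.62% of neutrophil-gene-rich barcodes.

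Of the list of genes known from FOLR2-type tissue macrophages, 22 were in the files and 16 were tested. Of these, 8 were higher in members and 0 lower, where 0.277% of all genes tested were higher. The median log2 fold change was 0.83 against -0.00407 over all genes tested. Besides Lyve1, Ccl8 and Pf4 the 8 were Mrc1, Sepp1 (selenoprotein P), Nrp1 (neuropilin 1), Wwp1 (a ubiquitin ligase) and Ednrb (endothelin receptor B). Ccl8 alone among them stayed called with the rule applied after thinning to 4000 UMIs, where all kept their direction. The list was chosen with earlier results of these data known, so its count is no independent evidence for the label. Mrc1 stood at 312 and 331 CPM against 161 and 190.4 (log2 fold change 0.86 ± 0.15, edgeR adjusted p = 0.0151). Sepp1 stood at 1182 and 777 against 379 and 539 (1.07 ± 0.20) and Nrp1 at 161 and 155 against 36.9 and 96.3 (1.17 ± 0.22). Some well-known genes of such macrophages were not called: the log2 fold change was 0.38 ± 0.12 for the transcription factor gene Maf, 0.58 ± 0.15 for the scavenger receptor gene Stab1 and 0.07 ± 0.14 for Apoe. Others were hardly counted at all: Igf1 had 6 and 1 UMIs in members and Vsig4 had 0. Timd4, the phosphatidylserine receptor gene TIM-4, had 0 and 91 UMIs in members, all of them in library 2.

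Of 20 chemokine genes tested, 3 were higher (Pf4, Ccl8 and Ccl7) and 0 lower, with a median of 0.11. Ccl7, a monocyte attractant, stood at 1001 and 744 CPM against 403 and 509.8 (log2 fold change 0.91 ± 0.16, edgeR adjusted p = 0.0151). Of the 19 genes of lipid-associated (TREM2) macrophages, 2 were higher, Lpl (lipoprotein lipase, 79.6 and 41.9 against 27.5 and 19.5 CPM) and Arg1 (arginase 1, 6403 and 1506 against 4103 and 850.5), with a list median of 0.21. Among 14 heme and iron genes 1 was higher, Blvrb, which encodes biliverdin reductase B and stood at 242 and 326 against 90.1 and 198 CPM. Hmox1, which encodes heme oxygenase 1, stood at 2260.0 and 731 against 1194 and 534 and did not pass (edgeR adjusted p = 0.107). Of 6 Fc receptor genes, Fcgrt, the heavy chain of the neonatal Fc receptor, was higher at 95.9 and 68.5 against 19.7 and 31.1 CPM (log2 fold change 1.52 ± 0.21).

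Other called genes belong to no list above. Enpp1, an ectoenzyme that splits extracellular nucleotides, stood at 63.0 and 2.75 CPM against 5.15 and 1.38, and rests mainly on library 1, where 86 members held 194 UMIs against 11 members and 16 UMIs in library 2. Its log2 fold change was 2.80 with both libraries and 0.91 in library 2 alone, which has no test. Mtss1, a regulator of membrane curvature and actin, stood at 39.6 and 23.5 against 11.2 and 7.43 (log2 fold change 1.71 ± 0.24), and Itsn1, an endocytic scaffold, at 29.2 and 31.3 against 9.44 and 11.3. Calml4 and Nme4 were also among the 10 with the highest fold change, at 20.8 and 16 against 4.29 and 4.68 CPM and 31.5 and 17.5 against 6.86 and 5.23 CPM.

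Stmn1, a tubulin-binding protein gene high in dividing cells, was the only one of 18 cell cycle genes called, at 42.2 and 15.5 CPM against 4.29 and 6.88. It came from few barcodes: the top 5 held 121 of 130 UMIs in library 1 and 75 of 90 in library 2, and 108 and 79 UMIs were in members with Mki67 or Top2a RNA. Thinned to 4000 UMIs, such barcodes were 3.08% and 1.98% of members and 2.65% and 1.94% of the C1q-positive set. Under the thinned rule its log2 fold change was -0.76 (edgeR adjusted p = 0.873).

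**Figure D3:**
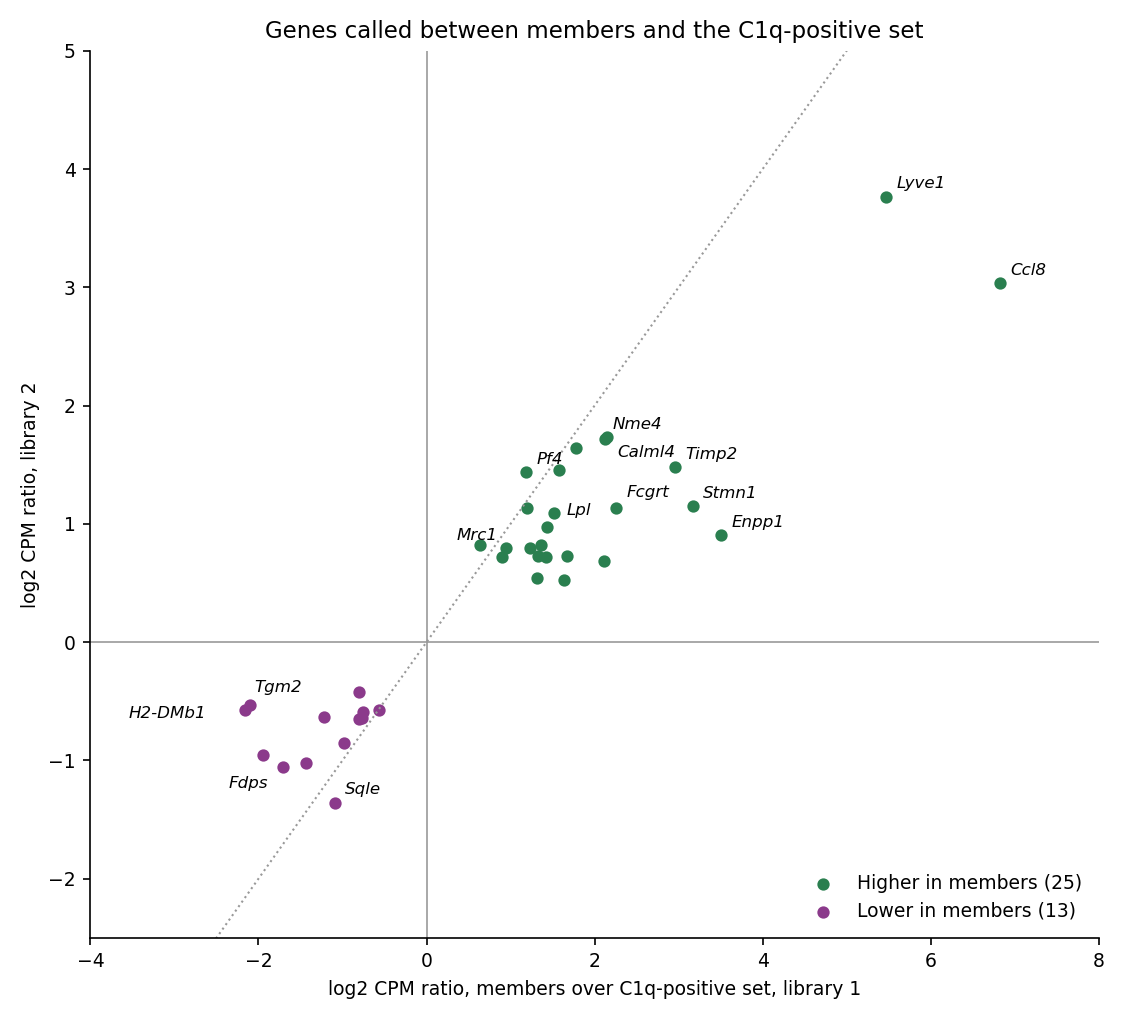
Log2 CPM ratio of members over the C1q-positive set in library 1 (x axis) and library 2 (y axis) for the 38 called genes, 25 higher (green) and 13 lower (purple), with the dotted line marking equal ratios. All points lie in the quadrants where both libraries go the same way, and ratios of Lyve1 and Ccl8 in library 1 stand against a set with 0 UMIs, so that they depend on the 0.5 count added to each sum.

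Genes of sterol synthesis were among those lower in members. Fdps (farnesyl diphosphate synthase) stood at 39.3 and 60.3 CPM in members and 129 and 125 in the C1q-positive set, with no overlap (log2 fold change -1.33 ± 0.21, edgeR adjusted p = 0.00983). Sqle (squalene epoxidase) stood at 11.7 and 12.5 against 24.9 and 32.2, Idi1 (isopentenyl diphosphate isomerase) at 9.10 and 21.1 against 35.2 and 41.0 and Msmo1 (methylsterol monooxygenase) at 26 and 23.0 against 70.4 and 46.8. A list of this pathway, drawn up after these calls were seen, had 4 of 21 lower, 0 higher and a median of -0.57. It is therefore no independent evidence of its direction.

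Of 11 MHC class II genes tested, 1 was lower, H2-DMb1, which encodes a chain of the peptide-loading molecule H2-DM: 57.2 and 323 against 256 and 479 CPM (log2 fold change -1.28 ± 0.24, edgeR adjusted p = 0.0209). The other 10, which include the cathepsin gene Ctss, also had estimates below 0, and the list median was -0.81. H2-Aa stood at 651 and 2447 against 2107 and 3045 CPM and did not pass (log2 fold change -1.08 ± 0.38, edgeR adjusted p = 0.326). The difference was larger in library 1. There the 5 barcodes with most held 939 of 2002 H2-Aa UMIs in members and 1314 of 2456 in the C1q-positive set. For H2-DMb1 they held 79 of 176 and 140 of 298. Without thinning, H2-Aa was seen in 68.7% and 87.0% of members and 66.7% and 82.4% of the C1q-positive set. H2-DMb1 was seen in 34.3% and 85.8% against 39.5% and 77.7%. These shares were not taken at 1 depth: median UMIs were 12749 and 21098 in members against 9995 and 11443 in the C1q-positive set. Of 22 glycolysis and hypoxia genes, 2 were lower, the mitophagy gene Bnip3 (126 and 106 against 214 and 165 CPM) and the lactate transporter gene Slc16a3 (280.4 and 266 against 415 and 396), with a median of -0.38 and 22 estimates below 0. Of 17 C-type lectin and scavenger receptor genes, Clec4n and Clec4d were lower and Mrc1 higher. The 19 monocyte genes gave 0 calls and a median of -0.41; Ccr2, the receptor for CCL2 and CCL7, stood at 809 and 888 against 1235 and 1289.9 CPM (edgeR adjusted p = 0.218).

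Genes of dead-cell uptake, which the study's title names, gave no call: of 23 efferocytosis genes 0 were higher and 0 lower, with a median of 0.07. The list holds receptors and bridging molecules together with Rac1, Dock1, Dock2, Elmo1 and Xkr8. Mertk, the receptor tyrosine kinase MERTK, differed by 0.51 ± 0.25 on the log2 scale (edgeR adjusted p = 0.594). In the list of 14 metalloproteinase genes, inhibitors and sheddases, which also holds Cd63 and Itgb1, Timp2 was the 1 call. Itgam, an integrin and complement receptor gene, is in the files under 2 identifiers, and both are counted in the integrin and in the complement list. Among 21 integrin and adhesion entries the 1 call was Lyve1. There were 0 calls among 15 complement entries other than C1q (median -0.07), 29 transcription factors (-0.03), 25 lysosomal genes (0.04), 21 eicosanoid genes (-0.25), 24 interferon response genes (-0.24), 18 dissociation and stress genes (-0.22), 17 chemoattractant receptors (-0.17), 21 cytokine and growth factor receptors (-0.10), 13 cytokines and growth factors (-0.26), 16 costimulatory and checkpoint ligands (-0.27) and 9 folate and one-carbon genes (0.15). Over all 9020 genes, 785 (8.7%) had an unadjusted p under 0.05.

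**Figure D4:**
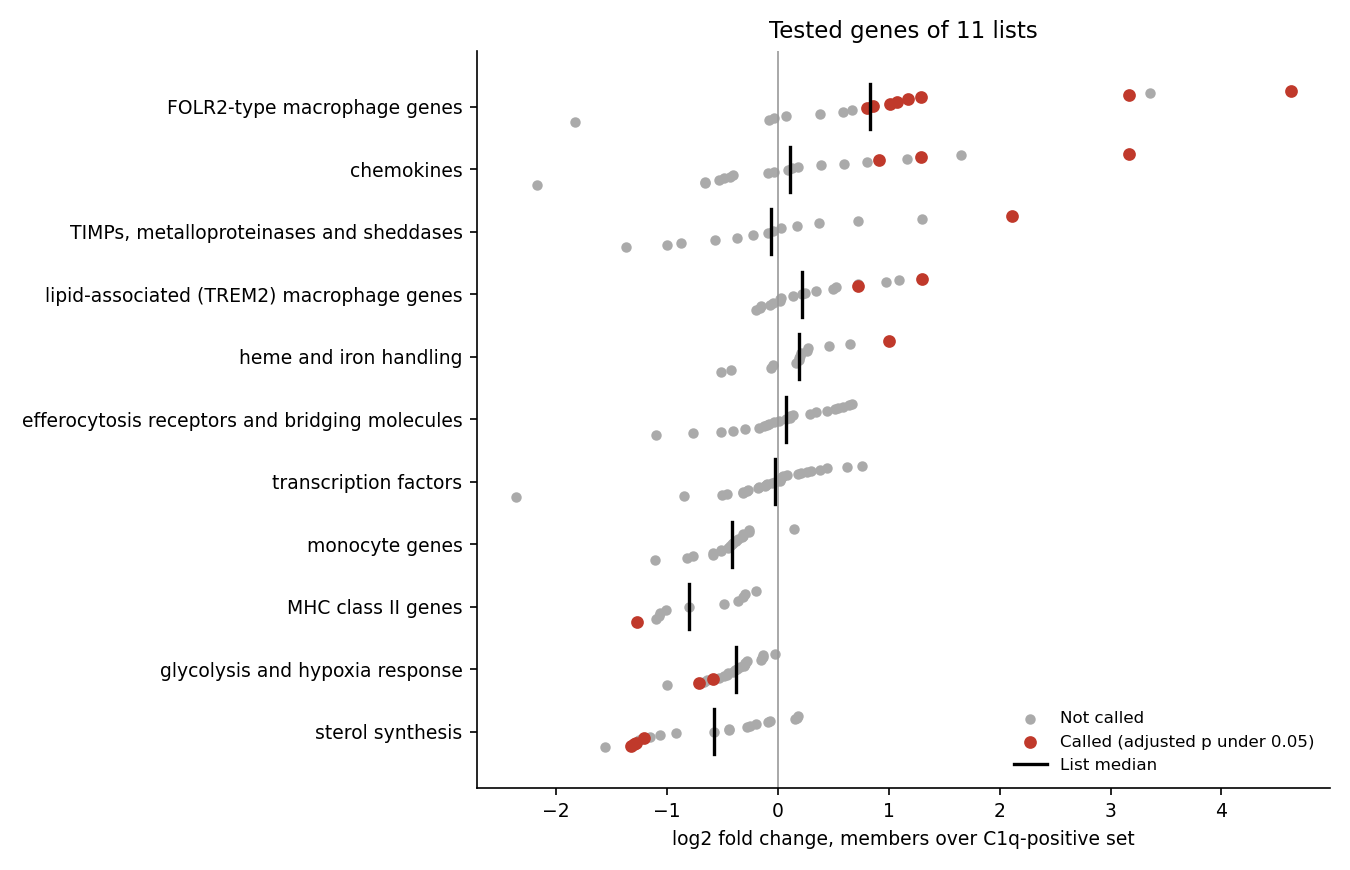
Log2 fold change of members over the C1q-positive set (x axis) for each tested gene of 11 gene lists (y axis; height within a list only spreads the points), with called genes in red, others in grey and the list median as a black bar. The FOLR2-type list, chosen with earlier results of these data known, has 8 called genes, all higher. The sterol synthesis list, drawn up after the calls were seen, has 4, all lower.

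Within members, the levels of some genes differed with the amount of the selecting RNA, and depth differed with it too. Members were divided by Folr2, Cbr2 and Cd163 UMIs per 10000 UMIs: under 2 (11 and 88 barcodes), 2 to under 5 (66 and 95), 5 to under 10 (60 and 51) and 10 or more (93 and 19). Median UMIs in these bins were 16346, 11973, 13266 and 12741 in library 1 and 27343, 18800, 18078 and 14898 in library 2, so the bins also sort barcodes by depth, and the part of depth in the values below was not tested. From the lowest to the highest bin, H2-Aa went from 1854 to 165 CPM in library 1 and from 2739 to 1614 in library 2, with each step lower than the one before. In library 1, 5 barcodes held 939 of the 2002 H2-Aa UMIs of all members. Ccr2 went from 957 to 631 and from 947 to 554 CPM, in library 1 not at each step. Sepp1 went up at each step, from 413 to 1687 and from 609 to 1298 CPM, and Timp2 from 27.5 to 177 and from 29.1 to 156. The bin of 19 barcodes in library 2 and that of 11 in library 1 are thin. Leaving both out, H2-Aa, Sepp1 and Timp2 kept their direction in both libraries, the Timp2 step in library 2 being from 50.8 to 51.7 CPM between the middle bins. The bins use the RNA that chose the members, so this is a description.

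**Figure D5:**
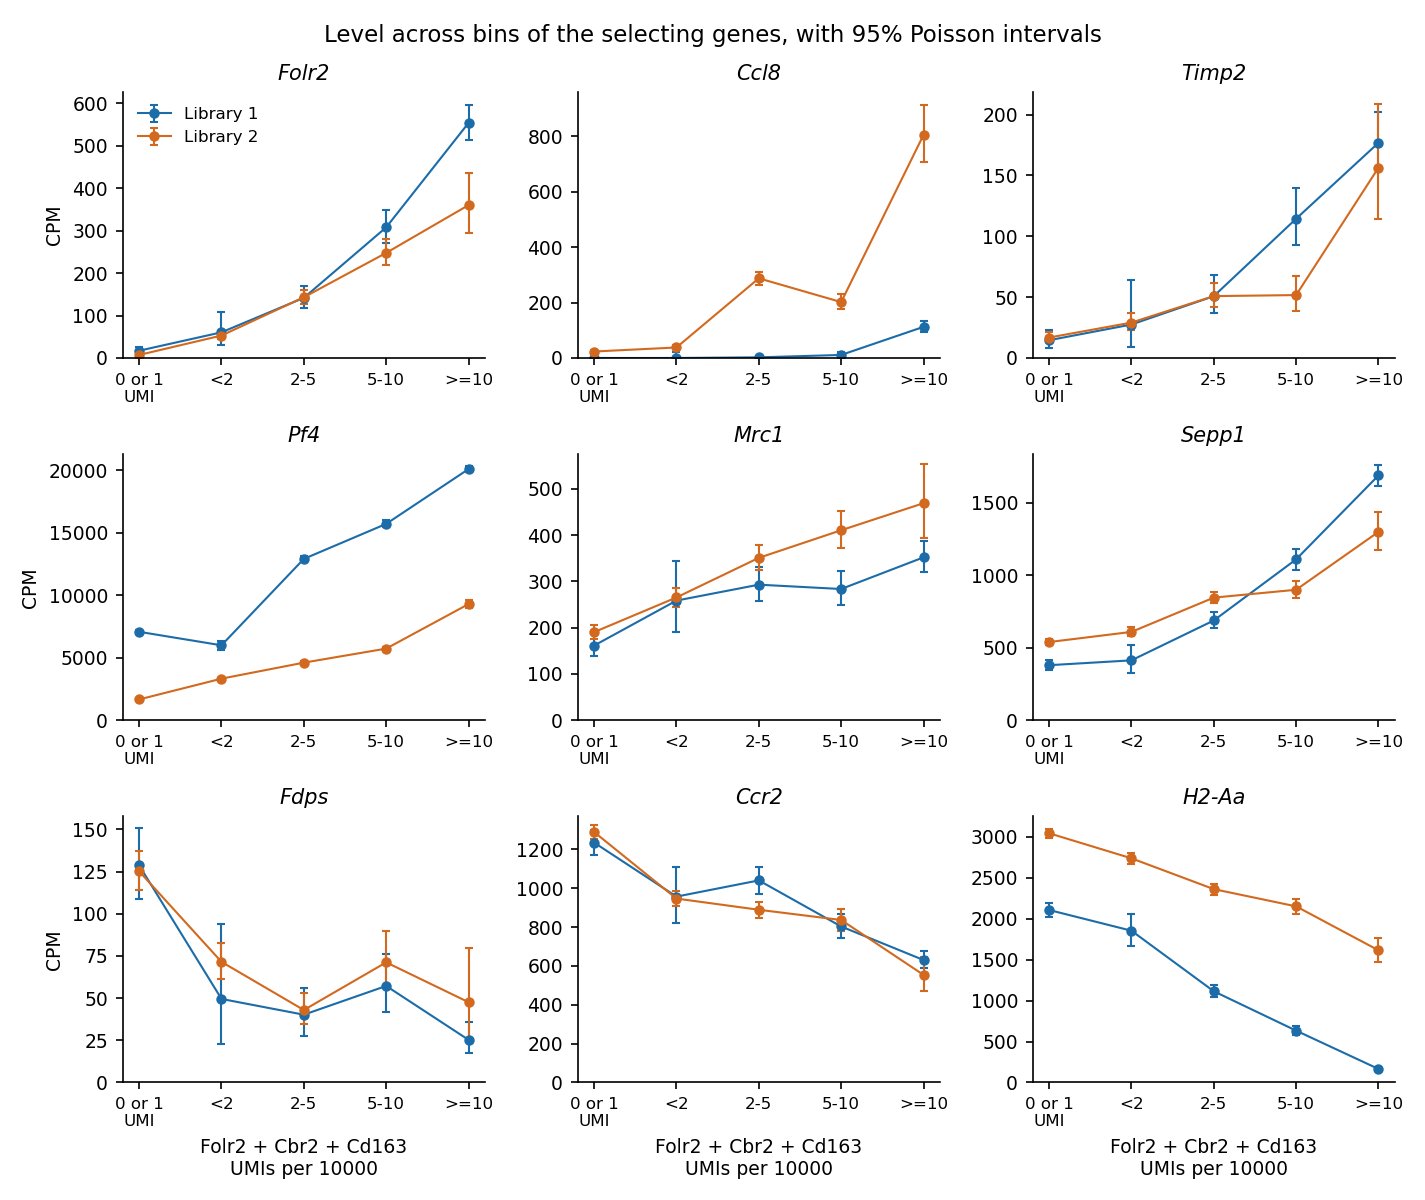
CPM (y axis, with 95% Poisson intervals) of 9 genes in the C1q-positive set (0 or 1 UMI) and in members binned by Folr2, Cbr2 and Cd163 UMIs per 10000 UMIs (x axis), for libraries 1 and 2. H2-Aa goes from 1854 to 165 CPM across the member bins of library 1 and from 2739 to 1614 in library 2, while Sepp1 goes from 413 to 1687 and from 609 to 1298; Folr2 is part of the binning measure.

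Genes most like Folr2 were ranked by the share of members with a UMI minus that of the C1q-positive set, both thinned to 4000 UMIs, in the library where the difference was smaller. The 10 first were Mrc1, Blvrb, Ccl7, Sepp1, Arg1, Ccl12, Wwp1, Nrp1, Dcxr and Ltc4s. Mrc1 was seen in 63.0% of members and 36.3% of the C1q-positive set in library 1 and in 66.7% and 40.7% in library 2. Blvrb followed at 48.9% against 25.7% and 71.4% against 46.5%, and Ccl7 at 53.7% against 31% and 69.8% against 40.7%. The ranking covers 2 libraries and uses the same barcodes as the calls.

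The second comparison asks how members differ from the 33 and 24 barcodes with at least 5 UMIs of the resident genes. This set had no C1q minimum and no limit on the selecting genes. Its median C1q UMIs were 22 and 69.5, with lowest values of 0 and 3. Folr2 had 38 and 19 UMIs in it and Cd163 had 45 and 1. It held 3 and 5 barcodes that met every other condition of a member. Members had more RNA of the chemokine genes Ccl2 and Ccl9, the MHC class II genes H2-Aa and Cd74 and the chemokine receptor gene Ccr2, and less of the adhesion genes Cd9 and Itgb1 and the cyclooxygenase gene Ptgs1. Of 9020 genes, 1039 (11.5%) were called by edgeR, 385 higher (4.27%) and 654 lower (7.25%), of which 1037 went the same way in both libraries. The count was 596 with library 2 limited to the BC2 side, 549 among barcodes of 5000 to 15000 UMIs and 223 without the library block. In library 2, 14 of the 24 barcodes of this set lay on the BC2 side, against 251 of 253 members. Tag and set thus partly go together in this comparison, and what part the tags have was not tested. The resident-gene set held much division RNA: after thinning, 36.7% (11 of 30) and 12.5% (3 of 24) of its barcodes had Mki67 or Top2a, and 10 of 18 cell cycle genes were lower in members; what part this has in the other calls was not tested.

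Chemokine genes had 11 of 20 higher in members and 3 lower, with a median log2 fold change of 1.53 (1.43 with Cxcl13 at its bound) against 0.04 over all genes. Ccl2 stood at 1463 and 1539.6 CPM in members and 288 and 431 in the resident-gene set (log2 fold change 2.07 ± 0.16, edgeR adjusted p = 9.39e-08), and Ccl9 at 7656 and 4865 against 2269.9 and 1754. Cxcl13, a B cell attractant, had 0 UMIs in members and 2 and 12 in the resident-gene set, at least 45.5-fold lower in members with 3 counts over the members as the floor. Of the 11 genes of the MHC class II list, 5 were higher, the cathepsin gene Ctss among them. H2-Aa, also called, stood at 651 and 2447 against 73.9 and 1041 CPM. Cd74, the invariant chain gene, was called too and stood at 2253 and 7571 against 359 and 3165. Of 24 interferon response genes 8 were higher and 0 lower. The 19 monocyte genes were divided: 6 were higher (F13a1, Ccr2, Ms4a4c, Vcan, Emb and Gpr141) and 4 lower (Fn1, Chil3, Itga4 and Thbs1), with a median of 0.33. Chil3, a chitinase-like protein gene of monocytes, stood at 941 and 1590.1 CPM in members and 2373 and 6337 in the resident-gene set (log2 fold change -1.76 ± 0.34, edgeR adjusted p = 0.00175). Ccr2 went the other way and stood at 809 and 888 against 164 and 345 CPM (log2 fold change 1.74 ± 0.19, edgeR adjusted p = 8.44e-06).

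The FOLR2-type list had 9 of 16 higher and 2 lower than in the resident-gene set. Mrc1 was higher by 2.12 ± 0.21 on the log2 scale, Apoe by 1.77 ± 0.15 and Maf by 1.66 ± 0.16. Lyve1 had 0 UMIs in the resident-gene set and was at least 3.83-fold higher in members, with 3 counts over that set as the floor. The 2 lower genes were Fcna (ficolin A, 9.10 and 2.92 against 190.0 and 159 CPM) and Marco (a scavenger receptor, 1 and 0 UMIs in members and 41 and 8 in the resident-gene set, a ratio of 478 with a counting interval of 81.9 to 19268). Gata6, the factor that defines large cavity macrophages, had 0 UMIs in members and 21 and 25 in the resident-gene set, at least 150-fold lower in members by the same floor over the members.

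Both TIMP genes differed here, in opposite directions. Timp1 stood at 142 and 76.8 CPM in members and 31.7 and 7.5 in the resident-gene set (log2 fold change 2.61 ± 0.32, edgeR adjusted p = 2.4e-05). Timp2 stood at 117 and 47.1 against 272 and 221 (log2 fold change -1.69 ± 0.28, edgeR adjusted p = 0.000477). Members thus lay between the C1q-positive and the resident-gene set for Timp2 in each library.

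Of the 21 integrin and adhesion entries 10 were lower and 1 higher. Cd9, a tetraspanin, stood at 47.8 and 36.8 CPM in members and 1039.9 and 916 in the resident-gene set, Itgb1 (integrin beta 1) at 136 and 202 against 697 and 704. Among 21 eicosanoid genes 6 were lower and 2 higher; the cyclooxygenase gene Ptgs1 stood at 15.6 and 20.8 against 229.6 and 347 CPM and the lipoxygenase gene Alox5 at 25.3 and 9.96 against 113 and 171. Of the 15 complement entries other than C1q, 8 were lower and 3 higher; the log2 fold change of members over the resident-gene set was -4.11 ± 0.20 for C4b and -2.53 ± 0.35 for C3, both components downstream of C1q. Of 23 efferocytosis genes 5 were lower and 1 higher; Mertk differed by -0.66 ± 0.31 on the log2 scale (edgeR adjusted p = 0.211).

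The third comparison is with barcodes of the same fluid with at least 2 Ly6c2 UMIs and under 10 C1q UMIs, 101 and 319 in number. They were not all monocyte-like: the NK cell markers Ncr1, Klrb1c and Gzma had 0 and 344 UMIs in this set, against 0 and 5 in members. What part NK cell RNA has in the calls was not tested. Members had more RNA of Pf4, Mrc1, Blvrb and Arg1, and less of the monocyte genes Chil3 and Hp, the sterol synthesis genes Msmo1 and Fdps and the glucose transporter gene Slc2a1. Of 9020 genes, 390 (4.32%) were called, 161 higher (1.78%) and 229 lower (2.54%), of which 389 (4.31% of those tested) went the same way in both libraries; the exception was Timd4, named after its value was seen, with 0 and 91 UMIs in members and 1 and 6 in the Ly6c2 set. The count was 191 with DESeq2, 617 among barcodes of 5000 to 15000 UMIs and 0 without the library block. The 3 comparisons share the member sums, so they are not independent of each other. This set was not free of the selecting RNA, with Cd163 at 79.4 and 24.6 and Folr2 at 41.8 and 24.3 CPM.

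Of 19 monocyte genes 13 were lower and 0 higher, with a median log2 fold change of -1.0 against 0.00497 over all genes. The 13 include Ly6c2 itself, which chose the comparison set and is no result; it stood at 33.8 and 330.1 CPM in members and 569 and 824 there. Chil3 stood at 941 and 1590.1 against 5624 and 3406 (log2 fold change -1.91 ± 0.34, edgeR adjusted p = 0.00367), and Hp, haptoglobin, at 387 and 556 against 1042 and 1064. Ccr2 stood at 809 and 888 against 1225 and 1297 CPM and did not pass (edgeR adjusted p = 0.0618).

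Of the 16 FOLR2-type genes 12 were higher and 0 lower. The 12 include Timd4, which had 0 UMIs in members of library 1 against 1 UMI in the Ly6c2 set there, too few to read a direction in that library. Pf4 stood at 16104 and 4493 CPM against 3058 and 1234 (log2 fold change 2.09 ± 0.15, edgeR adjusted p = 2.58e-06) and Mrc1 at 312 and 331 against 81.5 and 131 (1.54 ± 0.16). Lyve1 had 1 UMI in the Ly6c2 set, a ratio of 53.7 with a counting interval of 9.45 to 2141. Timp2 was higher by 2.58 ± 0.36 and Timp1 was not called (0.14 ± 0.17, edgeR adjusted p = 0.737). Of 14 heme and iron genes 5 were higher and 1 lower, with Blvrb at 242 and 326 against 66.5 and 150.1 CPM and Hmox1 at 2260.0 and 731 against 1372 and 371. Arg1 stood at 6403 and 1506 against 2427 and 569 CPM (log2 fold change 1.39 ± 0.12, edgeR adjusted p = 2.24e-05).

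Of the 21 sterol synthesis genes 12 were lower than in the Ly6c2 set and 0 higher, with a median of -1.19. Msmo1 stood at 26 and 23.0 against 128 and 69.8 CPM and Fdps at 39.3 and 60.3 against 187 and 128. Of the 22 glycolysis and hypoxia genes 5 were lower, among them the glucose transporter gene Slc2a1 (log2 fold change -1.08 ± 0.18). The neutrophil collagenase gene Mmp8 stood at 11.4 and 33.3 against 137 and 107 CPM. MHC class II genes gave 0 calls of 11 here, with H2-Aa at 651 and 2447 against 843 and 1618 CPM, where library 1 was lower and library 2 higher in members.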

How the data were processed

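UMI counts per gene and barcode, as the authors deposited them for 2 libraries of 1 group, were made with Cell Ranger 3.0.1 on mm10, per the submitters' processing notes; the release of the annotation and the strand setting were not given in the sources used here. No doublet removal is recorded there. A search of 25 nearest neighbours among simulated pairs called 5 of 230 and 12 of 253 members doublets (10 of 1116 and 65 of 2847 barcodes overall); these were kept, and left out in an alternative. Antibody tag counts of library 2 were used only to divide its barcodes.

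Counts were summed per set and library and tested with edgeR 4.0.16 in R 4.3.3 (quasi-likelihood, TMM, filterByExpr, library as a block, 4 sets in 1 fit, Benjamini-Hochberg adjustment over 9020 genes, called under 0.05); DESeq2 1.42.0 was an alternative. Library numbers pair the sets because each set is drawn from the same 2 libraries. Nothing in the labels ties the libraries to different animals. With library as a block, p-values measure only how much the differences between sets varied between these 2 libraries. That spread was estimated over all 4 sets. Barcodes of each set were chosen on RNA of the same barcodes. On simulated data the test recovered 45 of 100 genes changed 2-fold and 90 of 99 changed 4-fold, with 0 unchanged genes called (9065 genes). The simulated sums had 1 common dispersion (0.0109) for all genes and no choice of barcodes by UMI count. They therefore cannot show how choosing members by UMI counts, or their greater depth, changes the calls. Summaries used Python 3.11.15, numpy 2.4.6, scipy 1.17.1 and pandas 2.3.3.

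Members and gene lists were chosen with earlier results of these data known; the sterol list was added after the calls were seen. Named genes are up to 4 called members of each list with the smallest p, the 10 highest and 10 lowest called fold changes with at least 20 UMIs in the higher set, and the 10 most like Folr2; others named, such as Timp1, Mertk, Timd4 and Vsig4, were chosen after their values were seen. Level ratios by library in the plot add 0.5 counts to each sum. Poisson, Clopper-Pearson and ratio intervals are at 95%; they and floors of 3 counts cover counting error only. Sequences are from RefSeq, where 11 of the 13 genes looked up had a window. Alternatives covered scaling, filtering, the block, the thresholds, thinning and depth, tags, doublets and each library.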

Additional observations from a re-analysis of the deposited data

How the results depend on the processing

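The number of genes called against the C1q-positive set (38) depended on the settings tried. It was 0 without the replicate block for library (165 at an unadjusted p under 0.05 in edgeR), 220 with only the 2 sets compared in the fit, 16 with DESeq2, 184 without a filter on low counts, 61 with members of 4 or more selecting UMIs against 0, 2 with the rule after thinning to 4000 UMIs, 154 among barcodes of 5000 to 15000 UMIs and 20 with library 2 limited to the BC2 side. It stayed within 1.5 times, between 27 and 41, under the other 5: scaling by total UMIs, 20 or more C1q UMIs, and leaving out doublet calls, platelet RNA or barcodes with RNA of both sexes (the last chosen after seeing the data). Against the resident-gene set (1039) it was 223 without the block, 549 in the UMI range and 596 on the BC2 side. Against the Ly6c2 set (390) it was 0 without the block (513 at an unadjusted p under 0.05), 191 with DESeq2, 693 without the filter and 617 in the UMI range. The cause of these changes was not tested. Among single genes, the thinned rule gave 0.56 for Itsn1, 0.78 for Nme4, 0.88 for Fcgrt and 1.24 for Calml4 on the log2 scale, each no longer called and over 1.5 times smaller in fold. The sign changed for Stmn1 against the C1q-positive set, at -0.76 with the thinned rule, and for Timd4 against the Ly6c2 set, whose value was -3.31 without library 2 and 3.01 without library 1. The Timd4 value without library 2 rests on 0 UMIs in members against 1 UMI in the Ly6c2 set, with 0.5 counts added to each sum. It cannot show a reversal. The share of members was 8.89 to 20.6% when either library was left out. Counts of calls without 1 library have no residual degrees of freedom and were not tested. Depth limits what can be read for Lyve1 and Ccl8, whose RNA came from few barcodes in both libraries, and for Enpp1 in library 2.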

Other observations

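The calls against the C1q-positive set that fell in no gene list included receptor and junction genes. Lifr, the receptor subunit for leukaemia inhibitory factor, stood at 77.7 and 53.6 CPM in members of libraries 1 and 2 and at 28.3 and 27.2 in the C1q-positive set (log2 fold change 1.18 ± 0.21, SE). Gja1, which encodes the gap junction protein connexin 43, stood at 81.6 and 43.6 against 34.3 and 25.0, and Wfdc17, a small secreted protein gene of macrophages, at 7479 and 3818 against 2987 and 2305. Tspan3, a tetraspanin gene, stood at 114 and 38.5 against 43.8 and 21.7, and Stxbp6, a syntaxin-binding protein gene, at 46.1 and 22.0 against 19.7 and 9.91. On the lower side, Tgm2 (transglutaminase 2) stood at 40.6 and 214 against 175 and 308, Plcb1 (a phospholipase C) at 35.7 and 55.0 against 70.4 and 99.1, Igsf6 at 79.9 and 119 against 139 and 186 and the hypoxia-induced gene Ankrd37 at 63.7 and 47.4 against 107 and 71.3. For Tgm2 the 2 libraries differed more than the sets did.

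Timd4 RNA lay in 33 members of library 2, with 91 UMIs, and in 0 of the 230 members of library 1, where a count of 0 allows a share of barcodes with a UMI of up to 1.30% (3 counts of 230). The C1q-positive set of library 2 held 58 Timd4 UMIs. The libraries differ in sex, tags and makeup, and what part any of these has in that difference was not tested.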
